A study of Mus musculus with 16 samples.

Results

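The genes described here are the 3 NR4A orphan nuclear receptors, Nr4a1, Nr4a2 and Nr4a3, and 7 other immediate early genes, Fos, Fosb, Junb, Egr1, Atf3, Dusp1 and Ier2. They were chosen by symbol, so that 10 of the 38924 gene rows of a bulk RNA-seq count table were followed through every library. The tissue, taken from C57BL/6J mice, was interscapular brown fat, which burns fuel to make heat. Mice lacking Akt2 in brown fat (KO, made with UCP1-CreER) were housed at 22 °C, with wild-type littermates (WT) at 22 °C, and further KO and WT groups were housed at 30 °C, a thermoneutral temperature for mice. Each of the 4 groups had 4 libraries from mice 13 weeks old that had spent 4 weeks at their temperature, starting at 9 weeks of age. AKT2 is a kinase downstream of the insulin receptor. UCP1-CreER is a Cre recombinase driven by the promoter of the brown adipocyte gene Ucp1 and switched on by tamoxifen, and whether WT littermates carried it or received tamoxifen is not given in the sources used here. The knockout therefore falls on brown adipocytes, whereas the RNA came from all cells of the depot, so that a change in the share of a cell type and a change in RNA per cell cannot be told apart.

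Total counts ranged from 12751528 to 23866743 per library, and all 10 genes were among the 14103 genes tested. Akt2, the targeted gene, averaged 82.2 ± 6.04 CPM (counts scaled to a fixed library size) in KO and 232 ± 19.8 CPM in WT at 22 °C, and 69.4 ± 10.7 CPM in KO and 204 ± 12.9 CPM in WT at 30 °C (SD, n = 4 each). The brown adipocyte marker Ucp1 was abundant in all libraries, at 1412 to 8756 CPM. The KO library labelled replicate 1 at 22 °C stood apart in most of the genes described here, and the main comparisons are therefore given with and without it.

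Immediate early genes are transcribed within minutes of a stimulus from factors that are already present in the cell, with no need for new protein, and most of their transcripts are short-lived. NR4A receptors are transcription factors that act without a known natural ligand and are set mainly by how much of them is made. In brown fat, noradrenaline released by sympathetic nerves acts on beta-adrenergic receptors, raises cyclic AMP and activates the factor CREB, and NR4A genes are well-known targets of this route. Fos, Fosb and Junb encode subunits of the dimeric factor AP-1. Egr1 encodes a zinc finger factor, Atf3 a stress-induced repressor of the ATF/CREB family, Dusp1 a phosphatase that switches off MAP kinases, and Ier2 a small nuclear protein.

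Promoter sequences from RefSeq (GRCm38.p6) were matched for 8 of the 10 genes, all but Egr1 and Ier2. They are shown because Nr4a3, the gene the main comparison turns on, and the other 2 NR4A genes, which were not called in it, carried repeats of the core of the cAMP response element. The letters TGACG (or CGTCA on the opposite strand) were searched in the 250 bases before each RefSeq start. They occurred at 4 places in each of Nr4a1, Nr4a2 and Nr4a3, at 3 in Dusp1, at 2 in Fos and at 1 in each of Fosb, Junb and Atf3. Of 32851 mouse promoters in the same table, 17.8% held at least 1 such core, 3.90% at least 2 and 0.137% at least 4. The full element TGACGTCA, which holds the core on both strands and so accounts for 2 of the 3 places in Dusp1, was present in Dusp1 alone among the 8, and in 1.55% of all promoters. The AP-1 letters TGAGTCA or TGACTCA (4.46% of all promoters), the NR4A letters AAAGGTCA (1.34%) and the EGR letters GCGTGGGCG (0.536%) were searched on both strands and matched in none of the 8 windows. A match is a description of the letters and not a measured site. In the stretches below the core is in capitals, each stretch is read 5′ to 3′ on the gene's own strand, and annotated exons were left out.
Nr4a1 (chr15:101266596-101266830, plus strand, 4 of 4 cores): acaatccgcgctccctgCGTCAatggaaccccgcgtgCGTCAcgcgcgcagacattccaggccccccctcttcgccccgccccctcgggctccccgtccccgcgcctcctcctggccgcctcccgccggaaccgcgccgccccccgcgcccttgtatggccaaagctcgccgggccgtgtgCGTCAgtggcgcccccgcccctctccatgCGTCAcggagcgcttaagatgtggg
Nr4a2 (chr2:57124090-57124223, minus strand, 4 of 4 cores): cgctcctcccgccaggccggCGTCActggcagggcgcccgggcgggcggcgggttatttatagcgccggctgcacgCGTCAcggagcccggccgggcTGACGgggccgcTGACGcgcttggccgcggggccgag
Nr4a3 (chr4:48045055-48045124, plus strand, 3 of 4 cores): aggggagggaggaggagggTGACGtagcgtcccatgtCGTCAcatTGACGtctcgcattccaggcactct
Fos (chr12:85473741-85473848, plus strand, 2 of 2 cores): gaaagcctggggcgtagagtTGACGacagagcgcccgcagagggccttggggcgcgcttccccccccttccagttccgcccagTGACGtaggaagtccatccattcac
Dusp1 (chr17:26508588-26508683, minus strand, 3 of 3 cores): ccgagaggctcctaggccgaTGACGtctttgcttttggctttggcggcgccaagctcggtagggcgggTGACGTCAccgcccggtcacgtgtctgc

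Nr4a3 was the member whose level separated KO from WT at 22 °C in every library. It lies on chromosome 4 (48045153 to 48086447, plus strand, GRCm38; identifier ENSMUSG00000028341). At 22 °C it had 73.6, 65.2, 42.8 and 80.2 CPM in KO libraries 1 to 4, against 11.5, 5.54, 5.38 and 14.8 CPM in WT libraries 1 to 4. At 30 °C it had 1.27, 7.59, 2.72 and 9.81 CPM in KO libraries, against 3.92, 2.12, 2.76 and 7.80 CPM in WT libraries. All 4 KO libraries at 22 °C were above the other 12 libraries, and the remaining 3 groups overlapped one another. The lowest KO value at 22 °C rested on 641 reads and the highest WT value there on 255 reads.

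**Figure D1:**
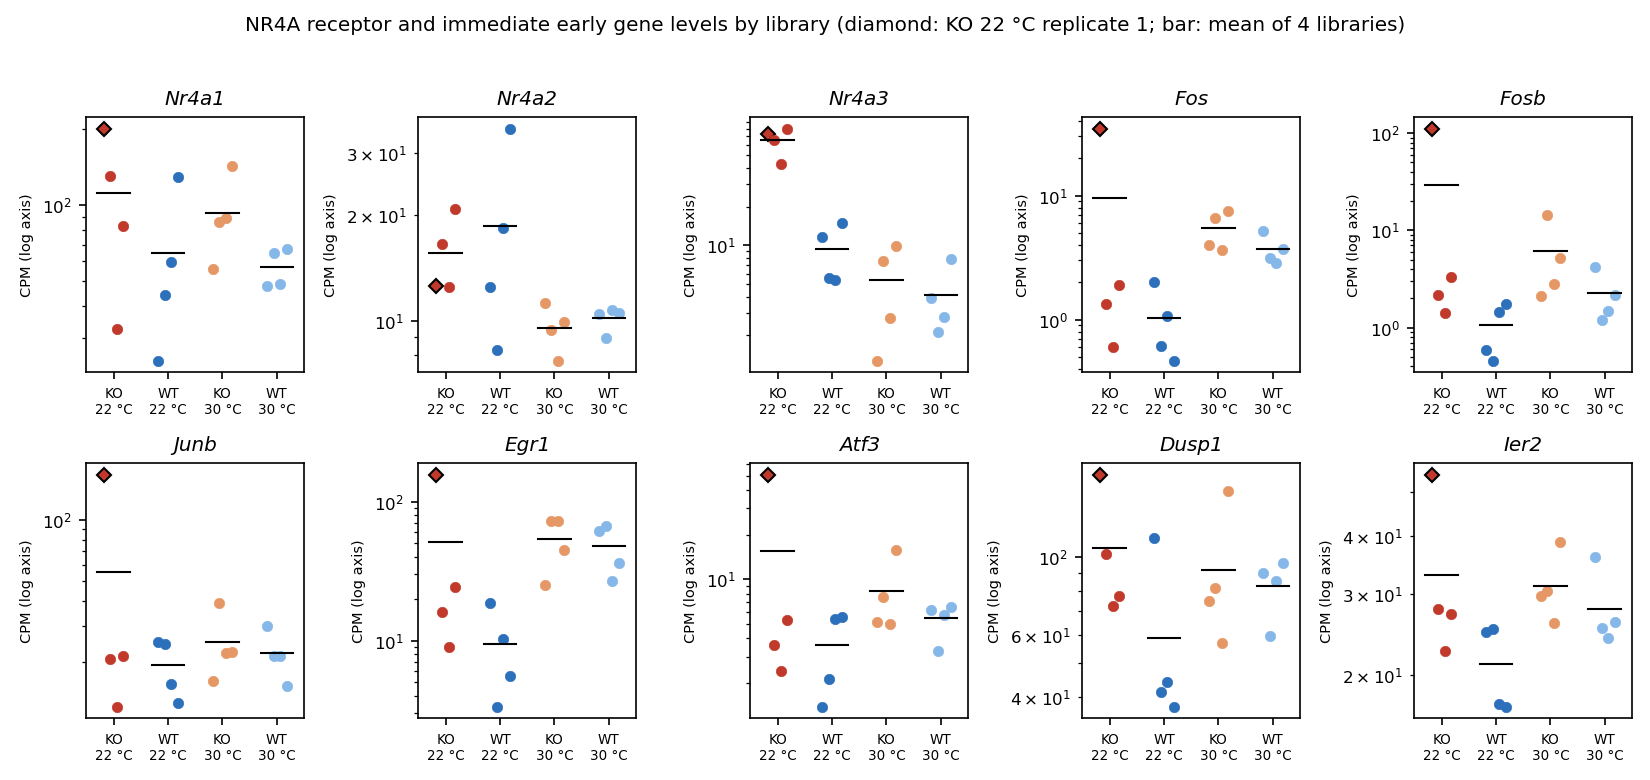
Level of each of the 10 genes in every library, in CPM on a log axis, by group (KO and WT at 22 °C, KO and WT at 30 °C, 4 libraries each). Points are libraries, bars are group means and the outlined diamond is KO replicate 1 at 22 °C, which is the highest of all 16 libraries in 8 of the genes, whereas Nr4a3 is high in all 4 KO libraries at 22 °C.

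Between KO and WT at 22 °C the Nr4a3 level differed by a log2 fold change of 2.80 (SE 0.552, adjusted p = 0.00498, edgeR quasi-likelihood test with Benjamini-Hochberg adjustment over all genes tested), so that it rose in KO. Leaving out KO replicate 1 gave 2.73 (adjusted p = 0.00972). Leaving out each of the 16 libraries in turn gave 2.61 to 3.11, with adjusted p between 0.00273 and 0.0154. In KO mice Nr4a3 also rose at 22 °C relative to 30 °C, by a log2 fold change of 3.58 (SE 0.579, adjusted p = 0.000782), or 3.51 (adjusted p = 0.00151) without KO replicate 1 at 22 °C. These comparisons share the KO libraries at 22 °C. In WT mice the corresponding value was 1.18 (SE 0.571, adjusted p = 0.122), which did not pass, with or without that library (adjusted p = 0.132 without it). The difference between the KO effects at 22 °C and 30 °C was 2.403 on the log2 scale (SE 0.792, adjusted p = 0.114) and did not pass the threshold in edgeR, while DESeq2 (adjusted p = 0.0393) and limma-voom with quality weights (adjusted p = 0.0363) put it past. Leaving out KO replicate 1 at 22 °C gave 2.33 (adjusted p = 0.153). By the edgeR test, then, a KO effect on Nr4a3 that differed between the temperatures was not called.

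A gene pair of the circadian clock moved with the same groups. The difference in log2 CPM between Dbp, a clock output gene, and Arntl, a core clock activator, lay between -3.43 and -2.20 in KO libraries at 22 °C, against -0.80 to 1.78 in WT libraries at 22 °C. At 30 °C it was -1.36 to 0.26 in KO and -0.56 to 0.40 in WT. This gene pair thus separated the genotypes completely at 22 °C, and its part and that of genotype in the Nr4a3 difference cannot be told apart there. At 22 °C Dbp averaged 4.29 ± 0.986 CPM in KO and 25.6 ± 10.4 CPM in WT. Arntl averaged 28.3 ± 4.04 CPM in KO and 15.1 ± 3.77 CPM in WT (SD, n = 4 each). The summed level of 16 clock genes overlapped between the genotypes, at 639 to 795 CPM in KO and 624 to 953 CPM in WT at 22 °C. Such a sum cannot show genes that move in opposite directions, as Dbp and Arntl did, and most clock genes are not given singly here. Per1, a further clock gene, averaged 99.2 ± 16.6 CPM in KO and 106 ± 23.4 CPM in WT there. With the clock difference as a covariate the KO effect on Nr4a3 at 22 °C was 1.36 on the log2 scale (SE 1.11, adjusted p = 0.750), and the 22 °C effect in KO was 2.71 (SE 0.786, adjusted p = 0.0367). Markers of other cell types also differed at 22 °C. The summed level of 12 endothelial markers was 1356 to 1487 CPM in KO and 1099 to 1276 CPM in WT, with 5 of the 12 called higher, and that of 10 smooth muscle and pericyte markers was 847 to 1028 CPM in KO and 667 to 816 CPM in WT, with 7 called higher and 1 lower. Of all genes, 7.44% were called higher there and 17.4% in either direction. KO replicate 1 had the lowest KO value in both sums. None of these markers was at 0 in all libraries. Their part in the Nr4a3 difference was not tested. Nr4a3 was also high in KO libraries with little skeletal muscle RNA. KO replicate 3, with 42.8 CPM of Nr4a3, held 4.61 CPM over 15 skeletal muscle markers, while KO replicate 4, with 80.2 CPM of Nr4a3, held 719 CPM. Without the 4 libraries richest in muscle RNA the KO effect at 22 °C was 2.73 (adjusted p = 0.00986). Only KO replicate 1 of those 4 was at 22 °C, so this fit largely repeats the one that left it out. The part of muscle RNA in the Nr4a3 difference was not tested.

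Nr4a1 (chromosome 15, 101254269 to 101274795, plus strand, ENSMUSG00000023034) was the most abundant NR4A gene and varied widely within groups. At 22 °C it had 201, 130.3, 32.4 and 82.5 CPM in KO libraries, against 24.3, 44.4, 59.9 and 129.8 CPM in WT libraries. At 30 °C it had 55.9, 86.1, 89.3 and 142.6 CPM in KO libraries, against 48.1, 64.8, 48.7 and 67.5 CPM in WT libraries. The groups overlapped at both temperatures. KO against WT at 22 °C gave a log2 fold change of 0.79 (95% interval -0.28 to 1.85, adjusted p = 0.329), and 0.34 (adjusted p = 0.722) without KO replicate 1, so that changes up to the upper bound were within the error.

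Nr4a2 (chromosome 2, 57106830 to 57124003, minus strand, ENSMUSG00000026826) was higher at 22 °C than at 30 °C by group mean in both genotypes. It had 12.6, 16.5, 12.5 and 20.8 CPM in KO libraries at 22 °C, against 12.5, 8.27, 18.4 and 35.3 CPM in WT libraries at 22 °C. At 30 °C the values were 11.2, 9.44, 7.70 and 9.91 CPM in KO libraries and 10.5, 8.94, 10.8 and 10.5 CPM in WT libraries. In KO every library at 22 °C was above every library at 30 °C, by a log2 fold change of 0.71 (SE 0.331, adjusted p = 0.130) that did not pass the threshold, or 0.79 (adjusted p = 0.118) without KO replicate 1. In WT the groups overlapped and the change, 0.87 (SE 0.329, adjusted p = 0.0483), was called close to the threshold. It was kept in 3 of the 16 fits that each left out 1 library. It was 0.87 (adjusted p = 0.0501) without KO replicate 1 at 22 °C, and the lowest value, 0.36 (adjusted p = 0.225), came without WT replicate 4 at 22 °C. At 22 °C KO and WT differed by -0.26 (95% interval -0.89 to 0.38), or -0.17 (adjusted p = 0.793) without KO replicate 1.

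In 5 of the 7 other immediate early genes, Fos, Fosb, Junb, Egr1 and Atf3, KO replicate 1 at 22 °C was 2.15-fold (Egr1) to 7.62-fold (Fosb) above the next highest of the 16 libraries. Fos lies on chromosome 12 (85473890 to 85477273, plus strand) and Fosb on chromosome 7 (19302696 to 19310051, minus strand). Fos had 34.5 CPM in that library and 1.35, 0.601 and 1.90 CPM in KO replicates 2 to 4, against 2.02, 0.607, 1.06 and 0.465 CPM in WT libraries at 22 °C. Fosb had 111 CPM in it and 2.14, 1.40 and 3.33 CPM in the other KO libraries, against 0.591, 0.455, 1.44 and 1.74 CPM in WT libraries. The library thus exceeded the mean of the other 3 KO libraries 26.9-fold in Fos and 48.5-fold in Fosb. For Junb it had 167 CPM, against 20.6, 12.03 and 21.3 CPM in the other KO libraries and 24.9, 24.4, 15.6 and 12.5 CPM in WT. Junb lies on chromosome 8 (84974484 to 84978718, minus strand), with exons that overlap those of Prdx2 on the opposite strand. Since no strand setting is given, some Junb reads could be Prdx2 reads, which is also true of Dusp1 and the opposite-strand gene Ergic1.

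Egr1, Atf3, Dusp1 and Ier2 were also highest in the same library, by less in Dusp1 and Ier2 than in the other 5 genes. Atf3 lies on chromosome 1 (191170296 to 191218039, minus strand), Dusp1 on chromosome 17 (26505590 to 26562128, minus strand) and Ier2 on chromosome 8 (84661331 to 84662852, minus strand). Egr1 (chromosome 18, 34859823 to 34864984, plus strand) had 156 CPM in KO replicate 1 and 16.2, 8.95 and 24.2 CPM in KO replicates 2 to 4, against 18.7, 3.34, 10.2 and 5.52 CPM in WT at 22 °C. Atf3 had 50.7 CPM in it and 3.61, 2.41 and 5.29 CPM in the other KO libraries, against 1.38, 2.13, 5.38 and 5.58 CPM in WT. In Dusp1 and Ier2 the library exceeded the mean of the other KO libraries 2.03-fold and 2.11-fold, and the next highest of all libraries by 1.115-fold and 1.404-fold. Dusp1 was at 170.4 CPM in it and at 101.7, 72.4 and 77.2 CPM in the other KO libraries, against 112.7, 41.5, 44.2 and 37.6 CPM in WT. Ier2 was at 54.5 CPM in it and at 27.8, 22.5 and 27.1 CPM in the other KO libraries, against 24.8, 25.1, 17.3 and 17.0 CPM in WT. Nr4a1 was highest in it as well, 1.407-fold above the next library. The exceptions among the 10 genes were Nr4a2, in which the library ranked 5 of 16, and Nr4a3, in which it ranked 2.

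Over all genes tested, 39 had a level in this library of at least 5 CPM and at least 4 times that of any of the other 15 libraries, and no other library had any such gene. Fos, Fosb and Junb were among them. Others, named after their values were seen, were the endothelial adhesion gene Selp, at 45.6 CPM against at most 1.49 CPM elsewhere, the chemokine gene Cxcl1 at 29.1 CPM against at most 1.49 CPM, Ptx3, a soluble pattern-recognition gene, at 37.0 CPM against at most 3.41 CPM, the AP-1 gene Fosl1 at 34.0 CPM against at most 3.65 CPM, and Hmox1, which encodes haem oxygenase, at 118 CPM against at most 18.5 CPM. The library also held the most skeletal muscle RNA. The 15 markers of skeletal muscle summed to 7393 CPM in it, against at most 4289 CPM elsewhere, and ranged over 4.61 to 7393 CPM in KO and 6.06 to 313 CPM in WT at 22 °C and over 4.79 to 4289 CPM in KO and 4.32 to 2638 CPM in WT at 30 °C. Acta1, a muscle actin gene, was at 1506 CPM in it. No muscle marker was at 0 in all libraries. The part of muscle RNA in the immediate early gene levels was not tested. KO replicate 2 at 30 °C, which held the next highest muscle sum, had 6.58 CPM of Fos, 14.6 CPM of Fosb, 39.1 CPM of Junb and 72.7 CPM of Egr1. It was the next highest of all libraries in Fosb, Junb and Egr1. KO replicate 4 at 30 °C, with a muscle sum of 4.79 CPM, was the next highest in Fos, Atf3, Dusp1 and Ier2.

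**Figure D2:**
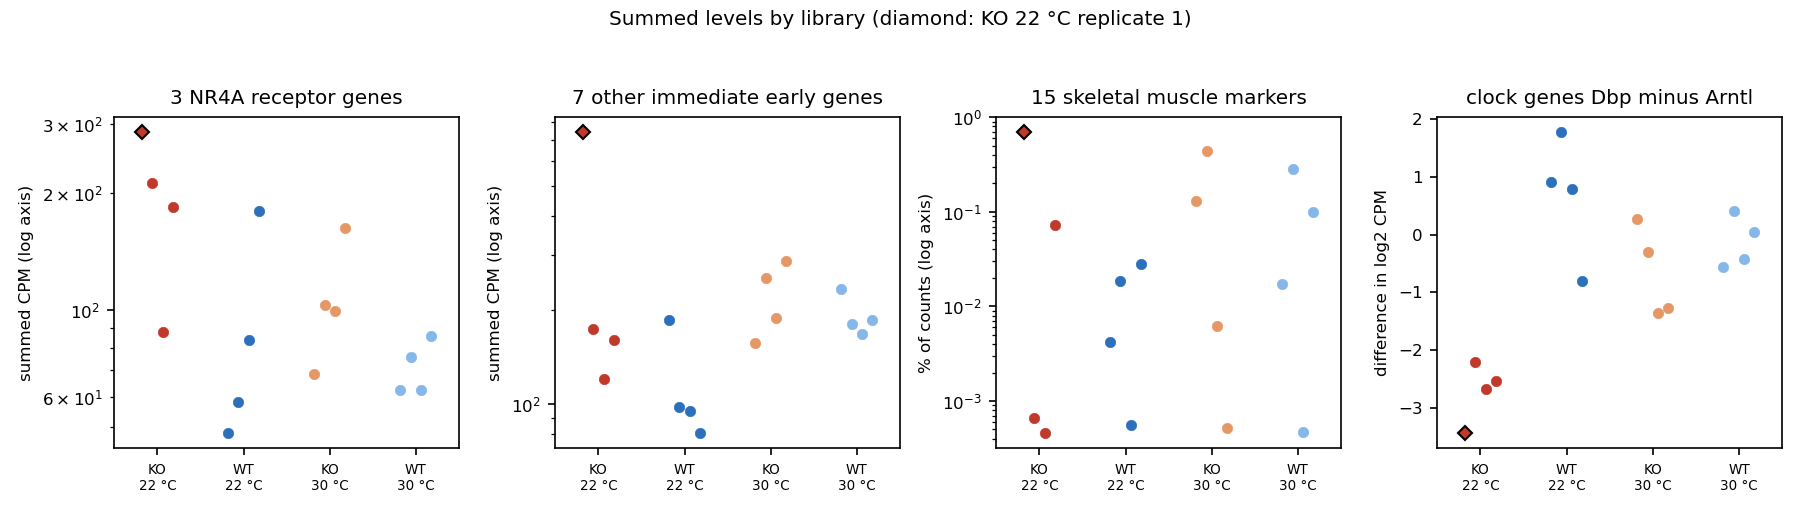
From left to right, the summed CPM (log axis) of the 3 NR4A genes and of the 7 other immediate early genes, the percent of counts on 15 skeletal muscle markers (log axis) and the difference in log2 CPM between Dbp and Arntl, by library and group. KO replicate 1 at 22 °C (outlined diamond) is highest in the first 3 panels, with 744 CPM over the 7 genes against at most 287 CPM elsewhere, and the 4 KO libraries at 22 °C are the lowest of all in the clock panel.

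In the comparison of KO with WT at 22 °C, 2 of the 10 genes were called, both higher, against 17.4% of all 14103 genes called in either direction and 7.44% called higher. Those 2 were Nr4a3 and Fosb, and a count of 2 in 10 is close to that background. Fosb had a log2 fold change of 4.78 (SE 1.43, adjusted p = 0.0388), and without KO replicate 1 it was 1.10 (SE 0.709, adjusted p = 0.326). The groups did not overlap in 1 gene, Nr4a3, where 17.5% of all genes had groups that did not overlap. The log2 fold changes of Fos (3.16), Egr1 (2.42), Atf3 (2.10), Junb (1.51), Dusp1 (0.83) and Ier2 (0.65) had adjusted p between 0.0605 and 0.169. The values without KO replicate 1 were 0.27 in Fos, 0.77 in Egr1, 0.06 in Atf3, -0.12 in Junb, 0.49 in Dusp1 and 0.28 in Ier2. The median over the 7 genes was 2.10 with that library and 0.28 without it, where the median over all genes was 0.02 with it and -0.01 without it. Nr4a3 was the 1 gene of the 10 called without it, against 13.8% of all genes, and the 1 whose groups did not overlap, against 23.3%.

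**Figure D3:**
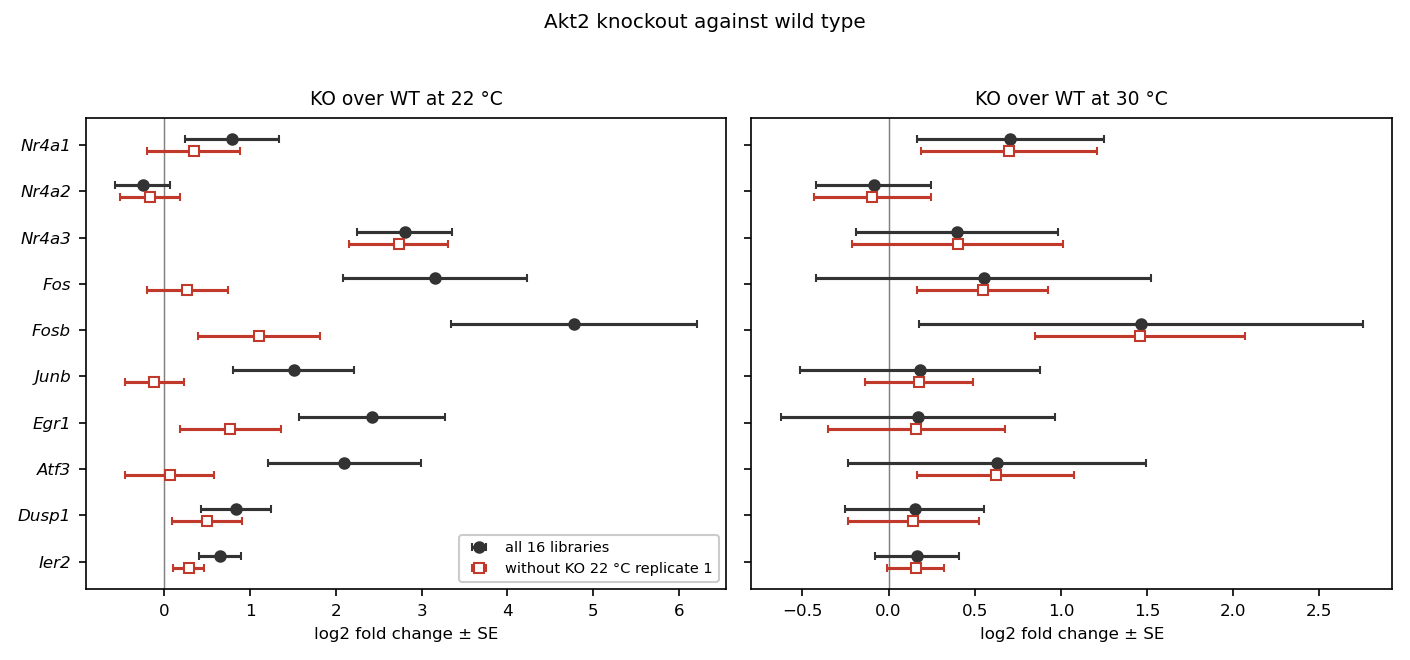
Log2 fold change of KO over WT for the 10 genes at 22 °C (left) and 30 °C (right), with bars of 1 SE from the edgeR fit, using all 16 libraries (filled circles) or leaving out KO replicate 1 at 22 °C (open squares). Nr4a3 stays at 2.80 and 2.73 at 22 °C, whereas Fosb moves between 4.78 and 1.10 and Fos between 3.16 and 0.27.

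At 30 °C none of the 10 genes was called between KO and WT by edgeR, where 0.0425% of all genes were, and none had an unadjusted p under 0.05 with all 16 libraries, 1 (Fosb) having one without KO replicate 1 at 22 °C. Limma-voom also called none, and DESeq2 called none of the 7 for which it gave an adjusted p, since it gave none for Fosb, Junb and Atf3 in any comparison. The log2 fold changes ranged from -0.09 in Nr4a2 to 1.47 in Fosb, 9 of the 10 being positive. Fosb was at 2.12, 14.6, 2.79 and 5.23 CPM in KO libraries, against 4.16, 1.20, 1.497 and 2.18 CPM in WT libraries, and the groups overlapped. Nr4a3 differed by 0.40 (95% interval -0.75 to 1.54). Junb was at 16.03, 39.1, 22.2 and 22.4 CPM in KO libraries, against 30.2, 21.3, 21.3 and 15.2 CPM in WT libraries. Atf3 was at 5.16, 7.59, 4.98 and 15.7 CPM in KO libraries, against 6.24, 3.27, 5.76 and 6.53 CPM in WT libraries. KO replicate 4 was thus the highest of the 8 in Atf3, and in Dusp1 and Ier2 as well. For Dusp1 the values were 74.9, 81.5, 57.0 and 152.8 CPM in KO libraries and 89.9, 59.5, 85.05 and 95.7 CPM in WT libraries, and for Ier2 they were 29.7, 30.4, 25.9 and 38.8 CPM in KO libraries and 36.0, 25.2, 24.1 and 26.1 CPM in WT libraries. The KO and WT libraries overlapped in every one of the 10 genes, where 5.93% of all genes had groups that did not overlap. For the difference between the KO effects at 22 °C and 30 °C none of the 10 was called by edgeR, against 3.07% of all genes. Nr4a3 alone had an unadjusted p under 0.05 there, and it was also the 1 gene of the 10 called by limma-voom and the 1 called by DESeq2 among the 7 with an adjusted p.

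Between 22 °C and 30 °C in WT, Fos and Egr1 were lower at 22 °C in every library, while the log2 fold changes of the 3 NR4A genes were positive. Egr1 was at 18.7, 3.34, 10.2 and 5.52 CPM at 22 °C, against 61.2, 66.8, 27.0 and 36.3 CPM at 30 °C. Its log2 fold change was -2.32 (SE 0.853, adjusted p = 0.0480), and it fell at 22 °C. The call was near the threshold and was kept in 4 of the 16 fits that each left out 1 library, with adjusted p between 0.00571 and 0.107. Fos was at 2.02, 0.607, 1.06 and 0.465 CPM at 22 °C, against 5.17, 3.15, 2.88 and 3.69 CPM at 30 °C. Its change of -1.80 (SE 1.07, adjusted p = 0.205) did not pass with all 16 libraries, which share 1 estimate of the spread per gene, and passed without KO replicate 1 at 22 °C, where it was -1.80 (SE 0.416, adjusted p = 0.00281). In all, 2 of the 10 genes were called, Nr4a2 higher and Egr1 lower, against 38.2% of all genes, a share below that of the whole table, and 2 had groups that did not overlap, against 35.3%. Without KO replicate 1 at 22 °C the 2 called were Fos and Egr1, both lower, against 41.4% of all genes. The other 5 immediate early genes had log2 fold changes between -1.08 (Fosb) and -0.19 (Junb), none of them called.

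In KO the same comparison turned on the library that stood apart. With it, 1 of the 10 genes, Nr4a3, was called, against 26.7% of all genes, and 9 of the 10 log2 fold changes were positive. Without it all 7 of the other immediate early genes had negative values, from -2.08 in Fos to -0.13 in Dusp1. Fos was at 34.5, 1.35, 0.601 and 1.90 CPM in KO at 22 °C, against 4.03, 6.58, 3.62 and 7.52 CPM in KO at 30 °C, so that 3 of the 4 libraries at 22 °C were below all 4 at 30 °C. Its log2 fold change was 0.81 (adjusted p = 0.570) with all libraries and -2.08 (SE 0.454, adjusted p = 0.00368) without KO replicate 1, when Fos fell. Egr1 was at 156, 16.2, 8.95 and 24.2 CPM in KO at 22 °C, against 25.1, 72.7, 72.6 and 44.8 CPM in KO at 30 °C, with -0.07 (adjusted p = 0.961) and, without KO replicate 1, -1.71 (SE 0.593, adjusted p = 0.0519). Nr4a3 and Fos were thus the 2 genes called without that library, against 26.9% of all genes. With all libraries the groups did not overlap in 2 genes, Nr4a2 and Nr4a3, against 32.6% of all genes. Once KO replicate 1 was left out they did not overlap in 4 genes, the same 2 and Fos and Egr1, against 43.7% of all genes.

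**Figure D4:**
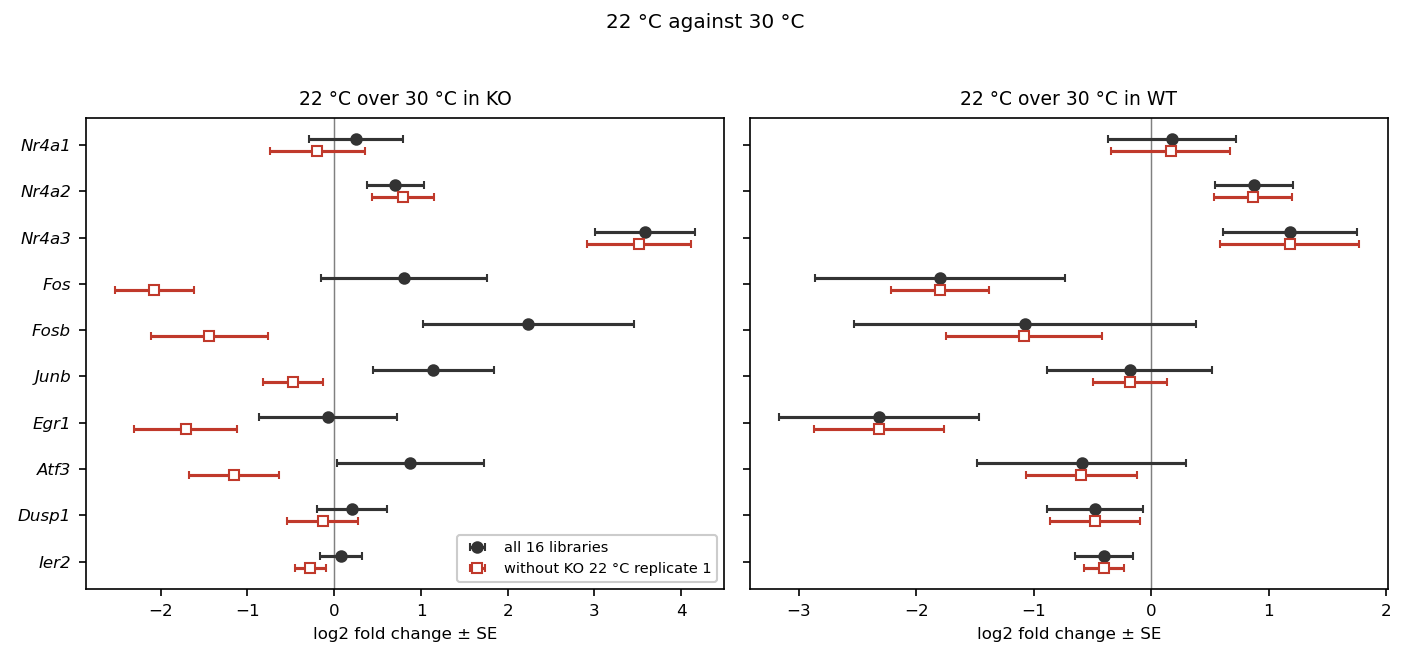
Log2 fold change of 22 °C over 30 °C for the 10 genes in KO (left) and WT (right), with bars of 1 SE from the edgeR fit, using all 16 libraries (filled circles) or leaving out KO replicate 1 at 22 °C (open squares). In KO the values of the 7 non-NR4A genes move below 0 without that library, to -2.08 in Fos, while Nr4a3 stays at 3.51.

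Compared per kilobase of exon, so that levels can be ordered between genes, the WT libraries at 22 °C had Nr4a1 at 18.4 ± 13.1 and Dusp1 at 17.8 ± 10.8 CPM per kb, then Ier2 at 13.8 ± 2.96 and Junb at 8.42 ± 2.71 CPM per kb (SD, n = 4). Nr4a2 followed at 4.59 ± 2.92 CPM per kb, Egr1 at 2.11 ± 1.52, Atf3 at 1.68 ± 1.01, Nr4a3 at 1.56 ± 0.777, Fos at 0.442 ± 0.298 and Fosb at 0.169 ± 0.101 CPM per kb. The ranges of mean ± SD overlapped between all neighbours in this order except Nr4a3 and Fos. In KO at 22 °C Nr4a3 was at 10.9 ± 2.72 CPM per kb, above Nr4a2 at 3.85 ± 0.975 and with Nr4a1 at 31.8 ± 20.4 CPM per kb. Nr4a3 was thus the lowest NR4A gene by mean in the other 3 groups and the middle one in KO at 22 °C.

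**Figure D5:**
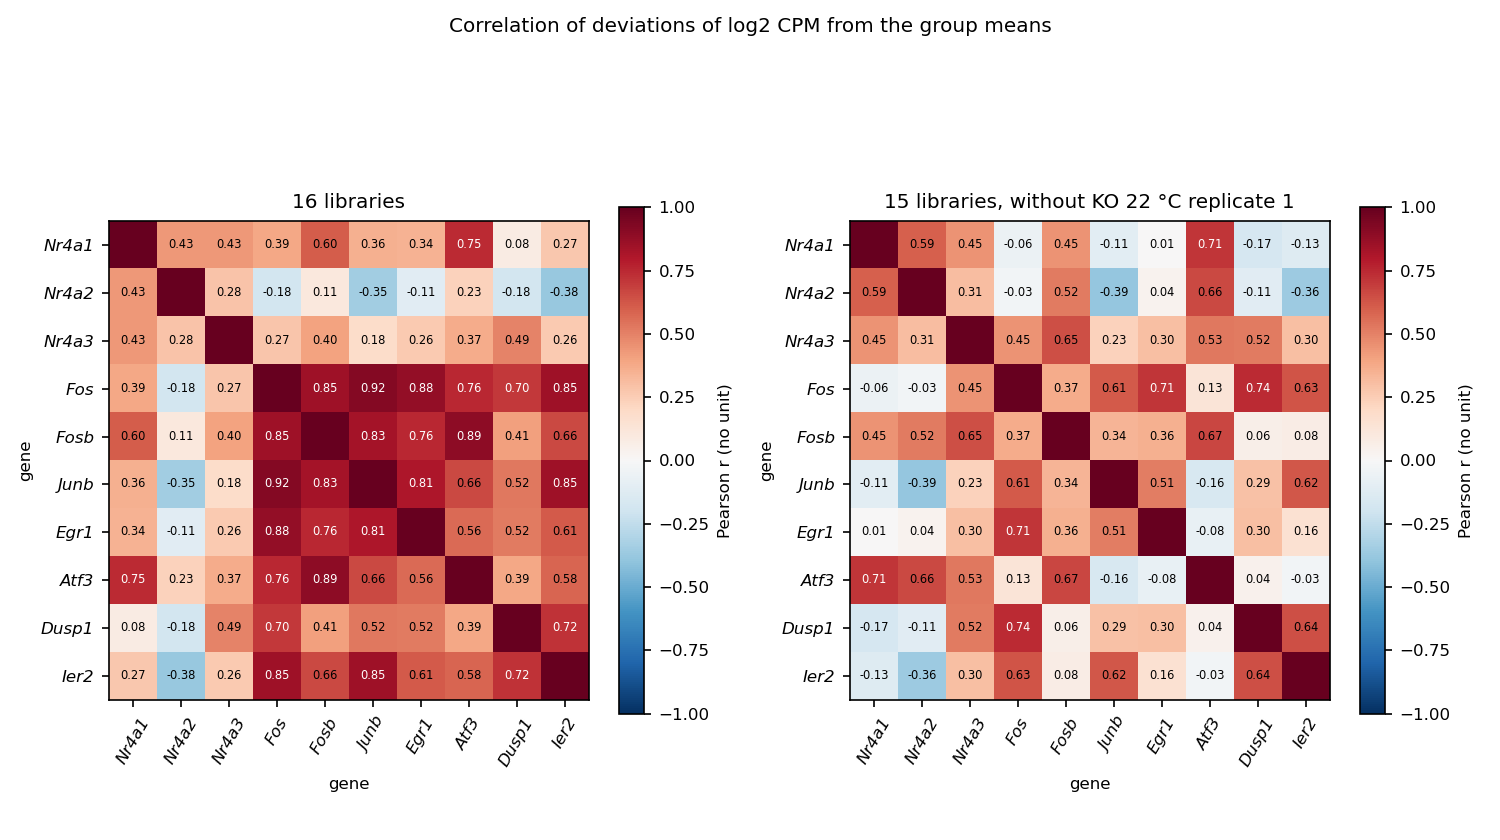
Pearson correlation (colour and printed value, no unit) between the 10 genes, of deviations of log2 CPM from the group means, over 16 libraries (left) and over 15 without KO replicate 1 at 22 °C (right). The block of positive values among the 7 non-NR4A genes has a median of 0.721 with that library and 0.341 without it.

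Deviations of log2 CPM from the group means were correlated between libraries over the 45 pairs of genes, with p from 100000 permutations within groups and Benjamini-Hochberg adjustment over the 45. With 16 libraries, 7 pairs passed by Pearson's r, all positive and all among the 7 non-NR4A genes, and by Spearman's rho 1 of the 45 passed, Fos with Dusp1. The highest was Fos with Junb, at Pearson r = 0.915 and Spearman rho = 0.803 (permutation p = 0.00549 and 0.0113, adjusted p = 0.0353 and 0.0655), and r was 0.624 without the 2 libraries farthest from the median of Fos. Fos with Dusp1 had r = 0.705 and rho = 0.762 (adjusted permutation p = 0.0353 and 0.0225), with r = 0.739 without the 2 farthest libraries. Between NR4A genes and the other 7 the median r was 0.261, and none of these 21 pairs passed. Without KO replicate 1 at 22 °C no pair passed.

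The genes whose deviations followed Fos most closely, among 10021 genes with a mean log2 CPM of at least 2, were Zfp36 (r = 0.974), Bcl3 (0.959), Nfkbiz (0.945), Btg2 (0.937) and Csrnp1 (0.932) over the 16 libraries. Over the 15 libraries without KO replicate 1 they were Zfp36 (r = 0.878), Mcur1 (0.848), Ercc5 (0.834), Nfkbiz (0.793) and Bcl3 (0.789). Zfp36 encodes an RNA-binding protein that destabilises transcripts and is itself an immediate early gene. Among the closest to Nr4a3 over the 16 libraries were Hmgxb3 (r = 0.853), Esf1 (0.825), Rbms3 (0.809) and Lipg (0.800). Closest to Nr4a1 were Ktn1 (0.854), Gtdc1 (0.853), Zkscan17 (0.847), Col12a1 (0.843) and Nek6 (0.828). Without KO replicate 1, Hmgxb3 (0.856) and Esf1 (0.833) stayed among the 5 closest to Nr4a3, and Rbms3 and Lipg did not. For Nr4a1, Zkscan17 (0.848), Nek6 (0.825) and Ktn1 (0.816) stayed, and Gtdc1 and Col12a1 did not. Neither set held another of the 10 genes. These correlations are descriptions over libraries that share depth and tissue composition.

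Genes of the surrounding pathways were counted from lists, using the adjusted p over all genes tested. Of 21 cAMP-responsive genes, 9 rose and 1 fell between KO and WT at 22 °C, against 17.4% of all genes called and 7.44% called higher, with a median log2 fold change of 0.54 where that of all genes was 0.02, and without KO replicate 1 the counts were 5 and 1, against 13.8% of all genes called. Ppargc1a, the coactivator of mitochondrial biogenesis and thermogenesis, averaged 180.2 ± 68.4 CPM in KO and 80.8 ± 17.5 CPM in WT (log2 fold change 1.16, adjusted p = 0.00423, and 1.26, adjusted p = 0.00331, without KO replicate 1). Crem, which encodes cAMP-responsive activators and repressors, averaged 30.7 ± 8.06 CPM in KO and 17.1 ± 1.92 CPM in WT (0.84, adjusted p = 0.00169, and 0.68, adjusted p = 0.00433, without that library). Adrb3, the beta3-adrenergic receptor, fell to 225 ± 57.6 CPM in KO, against 452 ± 139 CPM in WT (-1.01, adjusted p = 0.00593, and -1.18, adjusted p = 0.00353, without it). With the clock covariate none of the 21 was called, but the calls over all genes also fell steeply, as given under processing below. That covariate separated the genotypes completely at 22 °C, so its part and that of genotype in these genes cannot be told apart there. At 22 °C relative to 30 °C, 14 rose and 0 fell in KO, against 26.7% of all genes called, or 11 and 1 without KO replicate 1, against 26.9%. In WT 6 rose and 1 fell, against 38.2% of all genes called, a share close to that of the whole table, or 6 and 2 without KO replicate 1 at 22 °C, against 41.4%. Dio2, the thyroid hormone activating deiodinase, averaged 448 ± 83.8 CPM at 22 °C and 20.7 ± 4.48 CPM at 30 °C in KO (log2 fold change 4.43, adjusted p = 4.86e-05, and 4.50, adjusted p = 9.47e-05, without KO replicate 1).

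Of 47 further immediate early genes, 2 rose and 9 fell in WT at 22 °C relative to 30 °C, 11 in all, a smaller share than the 38.2% of all genes called, with a median log2 fold change of -0.36 where that of all genes was -0.03, and without KO replicate 1 at 22 °C the counts were 4 and 15, against 41.4%. Zfp36l1, an RNA-binding protein gene, fell to 24.0 ± 4.56 CPM in WT at 22 °C, against 49.3 ± 1.98 CPM in WT at 30 °C (-1.04, adjusted p = 1.06e-05, and 9.29e-06 without that KO library), whereas the kinase gene Pim1 rose to 90.4 ± 22.4 CPM at 22 °C, against 35.5 ± 5.05 CPM at 30 °C. In KO 7 rose and 6 fell with all libraries, against 26.7% of all genes called, and 4 rose and 18 fell without KO replicate 1, against 26.9%. Between KO and WT at 22 °C 5 rose and 0 fell, against 17.4% of all genes called and 7.44% called higher, or 4 and 1 without that library, against 13.8%. Macrophage markers also fell with cool housing: 8 of 12 were called lower at 22 °C than at 30 °C in each genotype, with summed levels of 128 to 159 CPM at 22 °C and 230 to 274 CPM at 30 °C in KO, and 114 to 232 CPM at 22 °C and 204 to 306 CPM at 30 °C in WT. Of 12 endothelial markers, 6 were called lower at 22 °C in KO and 9 in WT. Beside these marker counts, 26.7% of all genes in KO and 38.2% in WT were called in either direction. The part of these cells in the immediate early gene levels was not tested.

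Among 15 MAP kinase feedback inhibitors, 3 rose and 1 fell between KO and WT at 22 °C, or 2 and 1 without KO replicate 1, where 17.4% and 13.8% of all genes were called. Spry4, an inhibitor of receptor tyrosine kinase signalling, averaged 41.1 ± 34.8 CPM in KO and 10.2 ± 2.26 CPM in WT (log2 fold change 2.01, adjusted p = 0.0137, and 1.26, adjusted p = 0.0219, without that library). Of 16 upstream factors and coactivators of immediate early genes, 5 rose and 0 fell in KO at 22 °C, against 7.44% of all genes called higher, or 2 and 0 without KO replicate 1, close to the 13.8% of all genes called in either direction. They included Crebbp, the CREB-binding coactivator, at 34.5 ± 3.07 CPM in KO and 21.1 ± 5.16 CPM in WT (0.70, adjusted p = 0.0110, and 0.65, adjusted p = 0.0239, without that library), and Creb1, at 33.2 ± 1.83 CPM in KO and 25.9 ± 4.73 CPM in WT (0.35, adjusted p = 0.0326, and 0.34, adjusted p = 0.0557, without that library). Of 9 NR4A partner receptors and coregulators, the coactivator Ncoa3 rose in KO at 22 °C (0.47, adjusted p = 0.0340, and 0.45, adjusted p = 0.0647, without KO replicate 1). Of 12 further AP-1 and partner genes, Atf2, which encodes a partner of JUN proteins, rose at 22 °C relative to 30 °C in KO (0.54, adjusted p = 0.00127, and 0.55, adjusted p = 0.00154, without KO replicate 1) and in WT (0.38, adjusted p = 0.00842). Of 4 further EGR and NAB genes, Nab1, a corepressor of EGR factors, rose in KO at 22 °C relative to 30 °C (0.37, adjusted p = 0.0423, and 0.29, adjusted p = 0.106, without KO replicate 1). Of 14 heat shock genes, 3 rose at 22 °C relative to 30 °C in each genotype, the mitochondrial chaperonin genes Hspd1 and Hspe1 and the small heat shock gene Hspb8. Without KO replicate 1, Hspb8 was not called in KO (adjusted p = 0.0629). Dnajb1 (-0.73, adjusted p = 0.0211) and Hsp90ab1 (-0.50, adjusted p = 0.0110) were then called lower in KO, where 26.9% of all genes were called. The 3 of 14 that rose with all libraries were a smaller share than that of all genes called, 38.2% in WT and 26.7% in KO. The same shares stand beside Atf2 and Nab1. For Ncoa3, 7.44% of all genes were called higher in KO at 22 °C. The 6 genes of all tested that edgeR called between KO and WT at 30 °C included none from these 8 lists.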

How the data were processed

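The table deposited by the authors holds whole-number counts for Ensembl gene identifiers in 16 libraries. The submitters' processing notes name STAR 2.4.2a (an aligner), FastQC 0.10.1, edgeR 3.14.0 and the builds GRCm38 and mm10. The sources used here name no counting program, annotation or strandedness. Groups came from the sample titles. The labels do not state outright that every library is a separate mouse, and the spread behind the p-values is that between libraries, which may be technical. No pair of libraries of the same group was alike within counting noise (lowest chi-square per degree of freedom 7.68). Pairs from different groups were not checked in this way.

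Symbols matched 37607 identifiers, and 1317 without a symbol held at most 0.132% of a library. Coordinates and exon lengths are from GENCODE M21. Counts of 14103 genes that passed filterByExpr (minimum count 10) entered edgeR 4.0.16 (R 4.3.3), with TMM factors, 1 robust quasi-likelihood fit with a term per group, 5 comparisons, and Benjamini-Hochberg adjusted p under 0.05. The SE is the absolute log2 fold change over the square root of F, and 95% intervals span 1.96 SE on either side. The common biological coefficient of variation was 22.5%. CPM (the usual scaling by library size) use TMM-adjusted totals. The log2 CPM used for correlations had a prior count of 2. The script was tested on simulated data. Alternatives were other factors, no filter or a stricter one, limma-voom (limma 3.58.1), DESeq2 1.42.0, fits on only the groups compared, a replicate block, a clock covariate, and leaving out each library in turn, or all 4 whose skeletal muscle markers took over 0.1% of the counts. List counts and correlations without KO replicate 1 at 22 °C were added after the data were seen.

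The 10 genes and all lists were chosen with earlier results of these data known. All 10 genes are reported, and from each list at most 4 called genes with the smallest p per comparison. Some genes that this rule or the similarity ranking names are not reported here. Same-numbered libraries deviated together in 13 of 24 pairs by a correlation over 0.1 (range -0.503 to 0.519). Libraries of different numbers were not compared, so this cannot show whether the numbers pair the samples. The main fit treated the samples as unpaired.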

Additional observations from a re-analysis of the deposited data

Results flagged for a closer look

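In 40 groups of 4 libraries (10 genes in 4 groups), 9 had a lowest or highest library whose gap to its nearest neighbour, as a share of the group's range, exceeded Dixon's critical value, which chance gives in about 1 in 20 groups. KO replicate 1 at 22 °C accounted for 6 of the 9, with 34.5 CPM of Fos, 111 of Fosb, 167 of Junb, 156 of Egr1, 50.7 of Atf3 and 54.5 of Ier2. The others were WT replicate 1 at 22 °C, with 112.7 CPM of Dusp1, WT replicate 1 at 30 °C, with 36.0 CPM of Ier2, and WT replicate 2 at 30 °C, which was low with 8.94 CPM of Nr4a2.

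Of the tested genes in the 8 pathway lists, 2 had a KO effect that differed between 22 °C and 30 °C in edgeR's test of the difference itself. This was a smaller share than the 3.07% of all genes called. Zfp36l1 differed by 0.67 on the log2 scale (adjusted p = 0.0472) and Crebbp by 0.92 (adjusted p = 0.0499). Without KO replicate 1 at 22 °C neither passed, with 0.64 (adjusted p = 0.0666) and 0.87 (adjusted p = 0.0681).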

How the results depend on the processing

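The main limits are the library that stands apart, the difference in Dbp and Arntl between genotypes at 22 °C and the low counts of Fos, Fosb and Atf3. Of 922 log2 fold changes recomputed under other settings, 802 kept their direction and side of the threshold, 47 lost a call, 19 gained one and 54 changed sign. These covered all 10 genes in the temperature comparisons and in KO against WT at 22 °C. At 30 °C and for the difference between the KO effects they covered only Nr4a2, Nr4a3 and Fosb. The Nr4a3 calls held in 25 of 26 alternatives for KO against WT at 22 °C (the clock covariate being the exception, adjusted p = 0.750) and in 26 of 26 for 22 °C against 30 °C in KO. Fosb was called in 7 of the 16 fits without 1 library. The causes of the changes below were not tested.

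The number of the 10 genes called for 22 °C against 30 °C in WT (2) was 1 with upper-quartile factors, the replicate block or the clock covariate, 0 with no filter, and 0 to 3 without each library. In KO (1) it was 4 with limma-voom, 2 with only the groups compared or without muscle-bearing libraries, and 1 to 2 without each library. For KO against WT at 22 °C (2) it was 4 with DESeq2 (of the 7 genes it gave an adjusted p), 1 with no filter, limma-voom, only the groups compared or no muscle-bearing libraries, 0 with the clock covariate, and 1 to 5 without each library. For the difference between the KO effects (0) it was 1 with DESeq2 or limma-voom.

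Over all genes, the calls for 22 °C against 30 °C in KO (3761) numbered 6067 with limma-voom, 2221 with the clock covariate and 2139 without muscle-bearing libraries. For KO against WT at 22 °C (2457) they numbered 657 with only the groups compared, 112 with the clock covariate and 1438 without muscle-bearing libraries. For KO against WT at 30 °C (6) they numbered 22 with DESeq2, 44 with limma-voom, 1 without muscle-bearing libraries and 2 to 7 without each library. For the difference between the KO effects (433) they numbered 255 with no filter, 1076 with DESeq2, 1050 with limma-voom, 198 with the replicate block, 30 with the clock covariate, 105 without muscle-bearing libraries and 153 to 1117 without each library.

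Signs changed mostly for 22 °C against 30 °C in KO. With limma-voom the log2 fold changes were -0.26 in Nr4a1, -1.86 in Fos, -0.61 in Fosb, -0.21 in Junb, -0.82 in Atf3 and -0.20 in Ier2. With the clock covariate they were -0.91 in Nr4a1, -0.011 in Nr4a2, -1.42 in Fos, -1.99 in Fosb, -1.77 in Atf3, -0.16 in Dusp1 and -0.081 in Ier2. Without muscle-bearing libraries they were -0.50 in Nr4a1, -2.11 in Fos, -0.81 in Fosb, -0.31 in Junb, -1.47 in Atf3, -0.33 in Dusp1 and -0.33 in Ier2. With upper-quartile factors Ier2 was at -0.032. Without each library in turn the ranges were -0.19 to 0.56 in Nr4a1, -2.08 to 1.20 in Fos, -1.44 to 3.10 in Fosb, -0.48 to 1.48 in Junb, -1.71 to 0.28 in Egr1, -1.16 to 1.34 in Atf3, -0.13 to 0.55 in Dusp1 and -0.28 to 0.22 in Ier2.

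In WT the clock covariate gave 0.20 in Junb and 0.19 in Atf3, and leaving out each library gave -0.34 to 0.0083 in Junb and -0.42 to 0.44 in Nr4a1. For KO against WT at 22 °C the clock covariate gave -1.02 in Nr4a1, -0.26 in Fos, -0.85 in Fosb, -0.15 in Egr1 and -1.91 in Atf3, the fit without muscle-bearing libraries gave -0.12 in Junb, and leaving out each library gave -0.12 to 1.84 in Junb and -0.50 to 0.25 in Nr4a2. At 30 °C limma-voom gave -0.13 in Nr4a3, and leaving out each library gave -0.077 to 0.89 in Nr4a3 and -0.17 to 0.0025 in Nr4a2. For the difference between the KO effects the clock covariate gave -1.89 in Fosb and the fit without muscle-bearing libraries 0.10 in Nr4a2, and leaving out each library gave -0.35 to 4.18 in Fosb and -0.41 to 0.34 in Nr4a2. Genes outside the count of 922 changed sign as well when each library was left out. The difference was then -0.36 to 0.67 in Nr4a1, -0.28 to 3.18 in Fos, -0.30 to 1.66 in Junb and -0.56 to 1.94 in Atf3. At 30 °C the ranges were -0.12 to 0.37 in Junb, -0.22 to 0.32 in Dusp1 and -0.036 to 0.40 in Egr1.

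With the replicate number as a block, KO against WT at 22 °C gave 2.88 in Nr4a3 (adjusted p = 0.00200), Fosb was not called (adjusted p = 0.185) and Ier2 was (adjusted p = 0.0461), while Nr4a2 for 22 °C against 30 °C in WT was not called (adjusted p = 0.0589). Fos for 22 °C against 30 °C in KO was -0.49 with the replicate block. Whether the numbers pair the samples is not known. Without KO replicate 1 at 22 °C, 0 of the 45 pairs of genes were correlated past the threshold, where 7 were with it.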
